A study of Mus musculus with 6 samples.

Results

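SOX transcription factors were followed in embryoid bodies (EBs), with 9 genes as the members: the SoxB genes Sox1, Sox2, Sox3 and Sox21, the SoxC genes Sox4, Sox11 and Sox12, the SoxD gene Sox13 and the SoxG gene Sox15. They were chosen by gene symbol, as 9 of the 52636 genes in the count table and 9 of its 20 SOX genes. The other 11 SOX genes served for comparison. EBs are aggregates in which embryonic stem cells (ESCs) begin to differentiate. Here they were made from the mouse ESC line E14, as 3 WT replicates of the parental line and 3 Tnfaip2-/- replicates of a single clone edited with CRISPR-Cas9. Both genotypes spent 3 days in hanging drops in ESC medium with leukemia inhibitory factor and a further 3 days on gelatin in medium without it, and were then taken for RNA sequencing. Since each genotype was 1 line, the replicates carry the spread between samples of a line, and genotype cannot be told apart from differences between clones. The totals were 22987433, 22489903 and 23804489 counts in WT and 22480962, 21765931 and 21986960 in Tnfaip2-/- EBs.

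SOX proteins bind DNA through the HMG box, a domain that fits into the minor groove and bends the helix, and they select genes together with partner factors such as POU and PAX proteins. SoxB1 factors (SOX1, SOX2 and SOX3) keep neural progenitors undifferentiated, and SOX2 is in addition a core factor of pluripotency that acts with OCT4 (encoded by Pou5f1). SOX21, a SoxB2 protein, acts as a repressor and opposes SoxB1 activity in the neural tube. SoxC factors act later in the neural lineage, in progenitors that leave the cell cycle and in young neurons. SOX15 has an HMG box close to that of SoxB1 proteins and is present in mouse ESCs. SOX13 belongs to the SoxD group, whose proteins dimerize through a coiled coil and carry no activation domain of their own.

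Because SOX genes share the HMG box, a stretch of its coding sequence is shown for each member, as long as 1 read (51 bases), to show how far reads from this domain can be assigned. All 9 stretches begin at the same conserved arginine codon, lie within a coding exon and cross no intron. Capitals mark the bases that differ from Sox2, and coordinates are on GRCm38.
Sox1 (chr8:12396517-12396567, forward strand): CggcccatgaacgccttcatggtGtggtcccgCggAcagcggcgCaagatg
Sox2 (chr3:34650548-34650598, forward strand): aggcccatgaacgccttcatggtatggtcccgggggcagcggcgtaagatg
Sox3 (chrX:60892945-60892995, reverse strand): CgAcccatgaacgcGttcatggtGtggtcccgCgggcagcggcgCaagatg
Sox21 (chr14:118235558-118235608, reverse strand): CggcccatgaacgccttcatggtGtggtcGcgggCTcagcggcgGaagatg
Sox4 (chr13:28952791-28952841, reverse strand): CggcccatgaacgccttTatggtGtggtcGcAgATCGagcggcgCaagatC
Sox11 (chr12:27342208-27342258, reverse strand): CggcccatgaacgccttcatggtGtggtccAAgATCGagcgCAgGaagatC
Sox12 (chr2:152397525-152397575, reverse strand): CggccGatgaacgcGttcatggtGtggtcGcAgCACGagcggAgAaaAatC
Sox13 (chr1:133385515-133385565, reverse strand): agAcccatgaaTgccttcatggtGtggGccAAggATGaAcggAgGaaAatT
Sox15 (chr11:69655517-69655567, forward strand): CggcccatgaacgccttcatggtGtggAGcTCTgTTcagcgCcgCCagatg
Sox1 differed from Sox2 at 5 of the 51 bases and from Sox3 at 3, the closest of the 36 pairs of members. Within SoxC the pairs differed at 6 to 9 bases, whereas SoxB1 and SoxC genes differed at 9 to 14. Sox15 differed from Sox2 at 12 bases, and the most distant pair, Sox12 and Sox15, at 18. Over the whole annotated transcripts, no stretch of 51 bases in any member was shared with another of the 20 SOX genes. A read without mismatches can therefore be assigned to a single SOX gene.

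Of the annotated exon bases of Sox4, 54.6% (2616 of 4795) also lie in exons of Gm26735, a non-coding gene on the opposite strand that had 0 counts in all 6 samples. In Sox21, 18.8% of exon bases lie opposite Gm4675, which had 4, 3 and 5 counts in WT and 8, 7 and 10 in Tnfaip2-/- EBs. Sox15 shares 31 exon bases (3.6%) with the opposite gene Mpdu1, and Sox1 contains the miRNA gene Gm25239 (86 bases), with 0 counts in every sample. The library kit does not mark the strand, so reads from these shared bases cannot be assigned with certainty. Levels of different genes are therefore given below per kb of exon that no other gene shares.

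Tnfaip2, the edited gene, was counted 7, 4 and 7 times in WT and 0, 2 and 2 times in Tnfaip2-/- EBs. All 3 edited samples lay below all 3 WT samples, but the gene was too low to pass the expression filter and was not tested.

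All 9 members passed the expression filter and differed between the genotypes (edgeR's quasi-likelihood test, adjusted p under the threshold of 0.05). Sox2, Sox13, Sox15 and Sox21 rose in Tnfaip2-/- EBs, and Sox1, Sox3, Sox4, Sox11 and Sox12 fell. Such calls were common in these samples: 67.7% of the 17849 genes tested passed the same threshold, 34.0% higher and 33.7% lower. A change of at least 2-fold, made by 12.0% of the genes tested, was found for 5 members (Sox1, Sox3, Sox11, Sox15 and Sox21). The samples of the genotypes did not overlap for any of the 9 members, as for 69.4% of all genes tested. The median log2 fold change was -0.33 over the members and 0.00 over all genes tested. EBs hold several cell types, and in such bulk samples fewer cells of a type cannot be told apart from less RNA per cell.

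**Figure D1:**
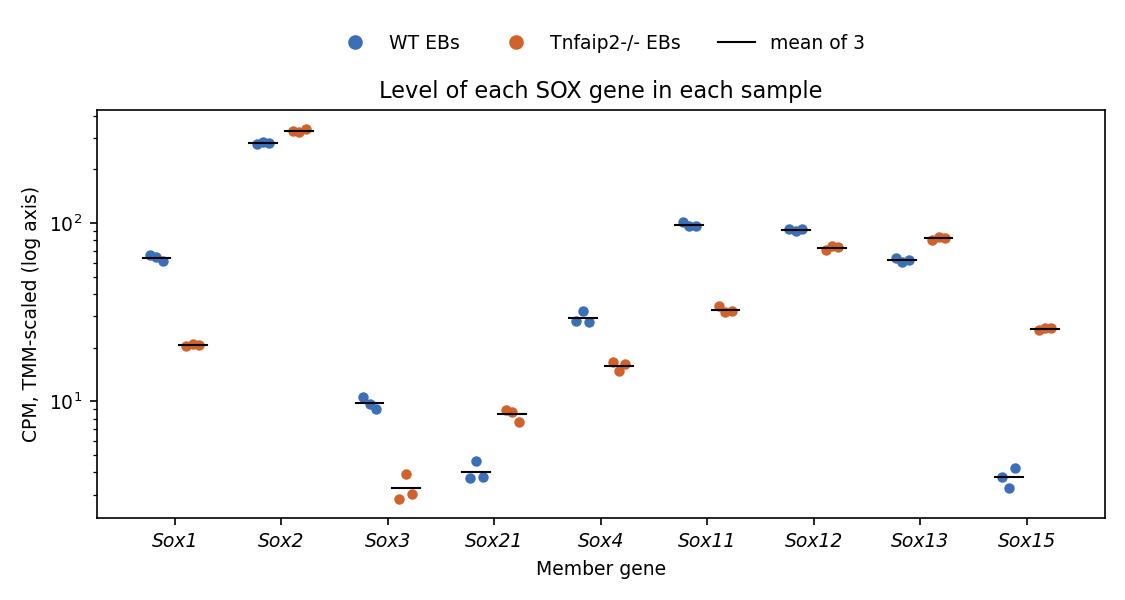
Level of each member in each of the 6 samples, as counts per 1000000 (CPM, TMM-scaled) on a log axis, with WT samples in blue, Tnfaip2-/- samples in orange and the mean of 3 samples as a line. The genotypes do not overlap for any member; Sox15 shows the widest gap, with WT samples between 3.26 and 4.21 CPM and Tnfaip2-/- samples between 25.2 and 25.7 CPM.

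The SoxB1 genes moved in different directions. Sox1 (ENSMUSG00000096014, chr8:12395295-12400126, forward strand, a single exon) marks the early neural plate. It had 1497, 1437 and 1428 counts in WT and 466, 461 and 461 in Tnfaip2-/- EBs. Every Tnfaip2-/- sample was thus well under every WT sample. Its level fell from 63.67 ± 2.67 to 20.78 ± 0.27 CPM (mean ± SD, n = 3 each), 3.06-fold lower, with a log2 fold change of -1.61 (SE, its standard error, 0.0478, adjusted p = 2.3e-31). The 2 oligonucleotides listed for Sox1 in the study's primer table each matched annotated transcripts of Sox1 alone. They enclose 93 bases of the same exon (chr8:12396623-12396715), 56 bases downstream of the HMG box stretch shown above, and are given here 5′ to 3′ because they mark a stretch of the transcript counted here.
forward: agtggaaggtcatgtccgag
reverse: tgtaatccgggtgttccttc

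Sox3 (ENSMUSG00000045179, chrX:60891366-60893430, reverse strand), the X-linked SoxB1 gene, had 238, 216 and 213 counts in WT and 64, 86 and 67 in Tnfaip2-/- EBs. All 3 edited samples were again low. Its level fell from 9.74 ± 0.722 to 3.26 ± 0.591 CPM, with a log2 fold change of -1.58 (SE 0.113, adjusted p = 7.03e-17), so that Sox1 and Sox3 fell by nearly the same factor.

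Sox2 (ENSMUSG00000074637, chr3:34650405-34652461, forward strand) rose instead. It had 6304, 6353 and 6581 counts in WT and 7404, 7109 and 7472 in Tnfaip2-/- EBs. The genotypes did not overlap, yet the difference was small: 280.7 ± 2.82 CPM in WT and 329.1 ± 6.78 CPM in Tnfaip2-/- EBs, 1.17-fold higher (log2 fold change 0.23, SE 0.0254, adjusted p = 6.12e-11). This change did not pass when tested against a fold change of 1.5 (adjusted p = 1).

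Long non-coding genes whose span overlaps Sox1 or Sox2 changed in the same direction as these genes. Sox2ot, whose introns hold Sox2 and which shares none of its exon bases, had 17, 20 and 17 counts in WT and 61, 61 and 50 in Tnfaip2-/- EBs. It had a log2 fold change of 1.70 (SE 0.207, adjusted p = 8.1e-10), larger than the 0.23 of Sox2. Sox1ot, on the strand of Sox1 and likewise without shared exon bases, had 29, 22 and 30 counts in WT and 2, 6 and 7 in Tnfaip2-/- EBs. It fell with a log2 fold change of -2.37 (SE 0.348, adjusted p = 7.47e-08). Whether the genes and these transcripts differ in their change was not tested.

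Sox21 (ENSMUSG00000061517, chr14:118233232-118237030, reverse strand), the SoxB2 member, had 84, 104 and 88 counts in WT and 204, 190 and 170 in Tnfaip2-/- EBs. The lowest edited sample was above the highest WT sample. Sox21 rose from 4.03 ± 0.531 to 8.44 ± 0.687 CPM, with a log2 fold change of 1.07 (SE 0.109, adjusted p = 6.65e-12). The antisense gene Gm4675 was too low for the filter.

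All 3 SoxC genes fell, by different amounts. Sox11 (ENSMUSG00000063632, chr12:27334264-27342574, reverse strand), which is known from immature neurons, had 2279, 2155 and 2258 counts in WT and 775, 696 and 712 in Tnfaip2-/- EBs. This was 2.99-fold lower, from 97.64 ± 2.53 to 32.66 ± 1.26 CPM (log2 fold change -1.58, SE 0.0404, adjusted p = 7.16e-34). Sox4 (ENSMUSG00000076431, chr13:28948919-28953713, reverse strand), which acts with Sox11 in many progenitors, had 640, 719 and 657 counts in WT and 377, 323 and 357 in Tnfaip2-/- EBs. It was 1.86-fold lower, from 29.44 ± 2.32 to 15.81 ± 0.955 CPM (log2 fold change -0.89, SE 0.0624, adjusted p = 3.06e-17). Sox12 (ENSMUSG00000051817, chr2:152393611-152398063, reverse strand), the SoxC gene with the weakest activation domain, had 2084, 2011 and 2158 counts in WT and 1607, 1616 and 1617 in Tnfaip2-/- EBs. It fell least, from 91.2 ± 1.21 to 72.47 ± 1.58 CPM (log2 fold change -0.33, SE 0.0345, adjusted p = 1.04e-11), and did not pass against a fold change of 1.5 (adjusted p = 1).

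Sox15 (ENSMUSG00000041287, chr11:69655314-69656727, forward strand, 2 exons) changed most of the 9 members. It had 85, 73 and 99 counts in WT and 573, 561 and 570 in Tnfaip2-/- EBs. The edited samples were close to each other and far above the WT samples. Its level rose 6.8-fold, from 3.74 ± 0.477 to 25.51 ± 0.257 CPM (log2 fold change 2.77, SE 0.0837, adjusted p = 5.67e-31). Mpdu1, the gene on the opposite strand that shares 31 bases with it, had 1941, 1728 and 1885 counts in WT and 2070, 2018 and 2073 in Tnfaip2-/- EBs, and a log2 fold change of 0.19 (adjusted p = 1.15e-05).

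Sox13 (ENSMUSG00000070643, chr1:133382303-133424377, reverse strand), with 14 separate exon blocks the only member beside Sox15 that is not a single exon, had 1447, 1360 and 1453 counts in WT and 1827, 1822 and 1815 in Tnfaip2-/- EBs. The genotypes were apart by more than the spread within them. It rose from 62.14 ± 1.58 to 81.81 ± 1.39 CPM, 1.32-fold (log2 fold change 0.40, SE 0.0362, adjusted p = 2.17e-13), but did not pass against a fold change of 1.5 (adjusted p = 1).

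**Figure D2:**
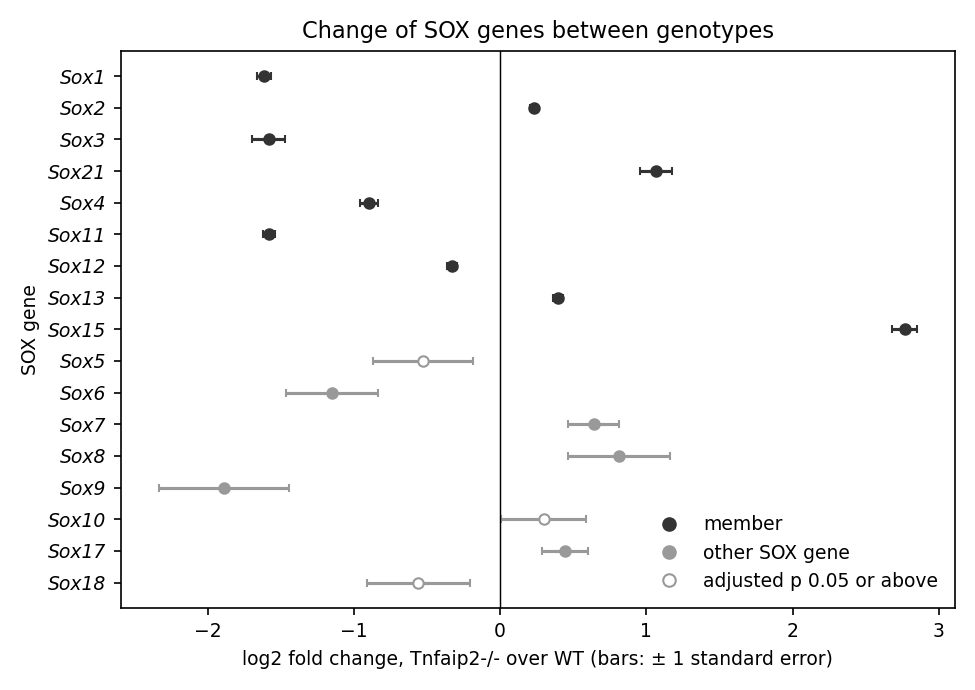
Log2 fold change of the 9 members (dark) and the 8 other SOX genes that were tested (grey), Tnfaip2-/- over WT, with bars of 1 standard error and open points for an adjusted p of 0.05 or above. Sox15 lies farthest to the right, Sox1, Sox3 and Sox11 lie together near -1.6, and the other SOX genes have wider bars than every member.

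Per kb of exon, Sox2 was by far the most abundant SOX transcript in both genotypes, at 136 ± 1.37 CPM per kb in WT and 160 ± 3.3 in Tnfaip2-/- EBs (mean ± SD, n = 3). In WT EBs it was followed by Sox12 at 20.5 ± 0.272, Sox13 at 14.4 ± 0.366, Sox4 at 13.5 ± 1.06, Sox1 at 13.4 ± 0.563 and Sox11 at 11.7 ± 0.305 CPM per kb. Sox3 (4.72 ± 0.35), Sox15 (4.51 ± 0.575) and Sox21 (1.31 ± 0.172) were lowest. The samples of Sox13, Sox4 and Sox1 overlapped in this order, as did those of Sox3 and Sox15, so that these neighbours cannot be ranked. Taken over its whole exon length, Sox4 would stand at 6.14 CPM per kb, below Sox11.

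In Tnfaip2-/- EBs the order was different. Sox15 took the second place, at 30.7 ± 0.31 CPM per kb, ahead of Sox13 (19 ± 0.323) and Sox12 (16.3 ± 0.354). Sox4 (7.26 ± 0.438), Sox1 (4.38 ± 0.0568), Sox11 (3.93 ± 0.152), Sox21 (2.73 ± 0.223) and Sox3 (1.58 ± 0.286) followed, with no overlap between neighbours. On its whole length Sox4 was at 3.3 CPM per kb and would fall behind Sox11.

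The summed level of the 9 members differed by 1.11-fold per kb, less than the change of most members. It was 221 ± 1.55 CPM per kb in WT and 246 ± 3.33 in Tnfaip2-/- EBs, and without Sox2 it was 84.1 ± 1.2 and 85.9 ± 0.618. In CPM, without division by length, the 9 members summed to 642 in WT and 590 in Tnfaip2-/- EBs, so that the direction of the sum depends on the length scaling. Sox15 went from 2.05% ± 0.275 to 12.5% ± 0.119 of the sum, and Sox2 from 61.9% ± 0.462 to 65.1% ± 0.5. The share of Sox1 went from 6.08% ± 0.233 to 1.78% ± 0.0315 and that of Sox11 from 5.33% ± 0.143 to 1.6% ± 0.0746. SoxB1 genes together stood at 155 ± 1.41 and 166 ± 3.19 CPM per kb, since Sox2 outweighed the fall of Sox1 and Sox3. SoxC genes together went from 45.7 ± 0.731 to 27.5 ± 0.261 CPM per kb, 1.67-fold lower. These sums are descriptions and were not tested.

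**Figure D3:**
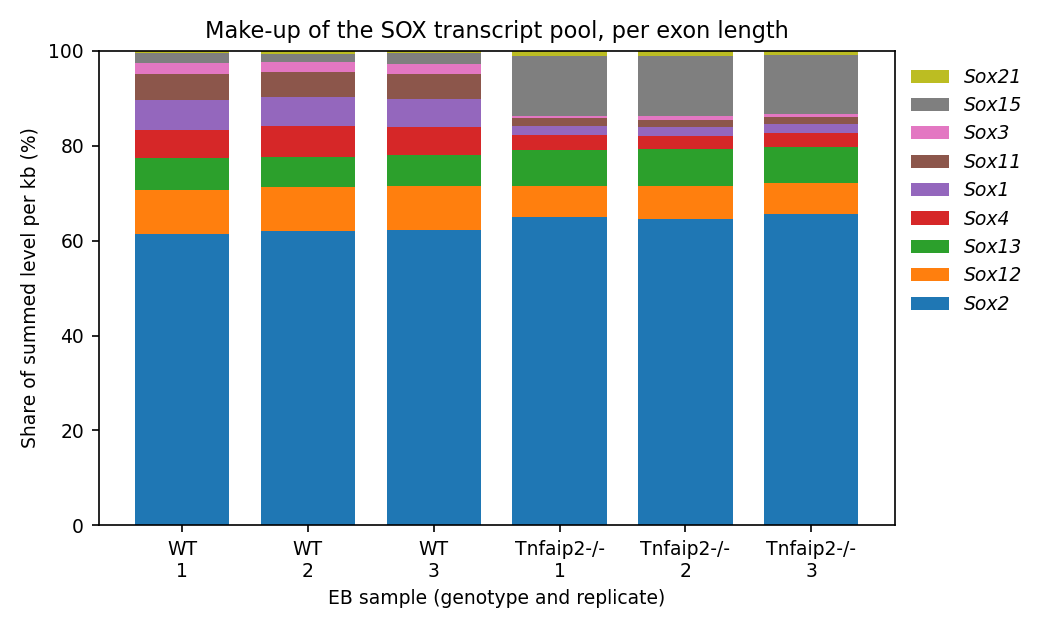
Share of each member in the summed level of the 9 members, in percent, after division by the exon length that no other gene shares; each bar is 1 sample. Sox2 fills over 60% of every bar, and the grey block of Sox15 widens from a mean of 2.05% in WT to 12.5% in Tnfaip2-/- EBs.

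Count ratios between members of a subgroup within a sample do not depend on scaling between samples. The log2 ratio of Sox1 to Sox2 was -2.07, -2.14 and -2.20 in WT and -3.99, -3.95 and -4.02 in Tnfaip2-/- EBs, a difference of -1.84. For Sox3 to Sox2 the difference was -1.82. By contrast, the ratio of Sox1 to Sox3 overlapped between the genotypes, with a mean of 2.71 ± 0.0502 in WT and 2.69 ± 0.235 in Tnfaip2-/- EBs (exact two-sided permutation p = 1). Leaving out Tnfaip2-/- replicate 2 turned this difference from -0.02 to 0.11.

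Within SoxC, the ratio of Sox12 to Sox11 showed the largest shift. Both genes had nearly equal counts in WT EBs (mean log2 ratio -0.10 ± 0.0319), whereas Sox12 exceeded Sox11 in Tnfaip2-/- EBs (1.15 ± 0.0865), a difference of 1.25. Sox4 to Sox11 shifted by 0.69 and Sox4 to Sox12 by -0.56. For the 5 pairs other than Sox1 and Sox3 the samples did not overlap, with an exact two-sided permutation p of 0.1 each (0.12 adjusted over the 6 pairs). A p of 0.1 is the smallest that this permutation test can give for 3 against 3 samples. It therefore cannot pass 0.05 for any ratio, whatever the size of the shift.

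**Figure D4:**
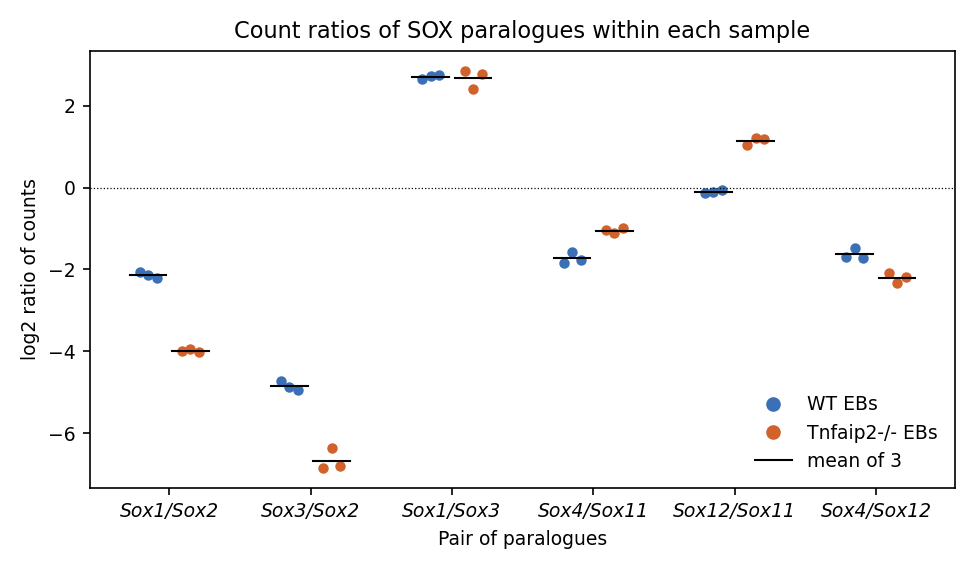
Log2 ratio of the counts of 6 pairs of SOX paralogues in each sample, with WT in blue, Tnfaip2-/- in orange and the mean of 3 as a line; the dotted line marks equal counts. Only the ratio of Sox1 to Sox3 overlaps between the genotypes, with means of 2.71 and 2.69.

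Genes with the most similar pattern over the 6 samples were taken by the distance between log2 CPM values centred on each gene's mean, among 15710 genes. Nearest to Sox15 were Sdc4 (distance 0.189), which encodes the heparan sulfate proteoglycan syndecan-4, the clock gene Arntl2 (0.197) and Dppa3 (0.223), a gene of naive pluripotent and germ cells. Sox1 was followed most closely by Pcolce (0.0759), an enhancer of procollagen processing, Cachd1 (0.0872) and the amino acid transporter gene Slc7a3 (0.115). For Sox3 they were the Notch ligand gene Dll1 (0.221), the midbrain and hindbrain homeobox gene En2 (0.238) and Frmd4b (0.249). With only 2 genotypes, closeness by this distance largely means a change of similar size between them. The log2 fold changes of these genes were 2.67 to 2.99 for Sox15, -1.62 to -1.57 for Sox1 and -1.69 to -1.43 for Sox3. Whether they share regulation with the members was not tested.

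Promoters were read from RefSeq (GRCm38.p6, 250 bases before to 50 after the annotated start), where 8 of the 9 members were matched and Sox3 was not. On both strands the octamer ATGCAAAT, the motif of POU factors, was found in Sox1 and Sox12 and in 1.74% of 32851 promoters. ACAAAG, a core SOX motif, was found in Sox2 and Sox15 and in 18.7% of promoters. ACAATG, another SOX core, was in none of the 8, and in 12.6% of promoters. None of the 8 held the joint OCT4 and SOX2 motif, the TATA motif or the E2F motif. CCAAT was in Sox1, Sox2, Sox4, Sox11 and Sox12 (37.4% of promoters). The GC box GGGCGG was in Sox1, Sox2, Sox11 and Sox12 (35.7%) and the TCF/LEF motif CTTTGA in Sox21 (16%). The 4 promoters with the octamer or ACAAAG are printed on the strand of their gene. Capitals mark the octamer (Sox1, Sox12) or the SOX core (Sox2, Sox15), which in Sox15 lies on the other strand and so reads CTTTGT.
Sox1 (chr8:12395269-12395568, forward strand): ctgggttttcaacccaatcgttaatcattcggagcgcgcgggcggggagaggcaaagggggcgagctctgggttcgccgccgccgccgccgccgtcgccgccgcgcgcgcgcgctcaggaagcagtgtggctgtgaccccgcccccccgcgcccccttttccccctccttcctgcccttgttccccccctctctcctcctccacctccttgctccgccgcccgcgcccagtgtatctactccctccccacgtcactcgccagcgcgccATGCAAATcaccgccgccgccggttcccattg
Sox12 (chr2:152397997-152398296, reverse strand): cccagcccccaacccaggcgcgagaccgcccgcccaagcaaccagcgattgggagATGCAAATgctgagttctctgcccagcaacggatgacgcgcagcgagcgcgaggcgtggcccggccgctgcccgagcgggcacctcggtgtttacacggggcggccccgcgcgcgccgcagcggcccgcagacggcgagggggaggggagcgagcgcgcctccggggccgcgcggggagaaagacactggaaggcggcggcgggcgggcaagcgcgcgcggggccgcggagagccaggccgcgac
Sox2 (chr3:34649745-34650044, forward strand): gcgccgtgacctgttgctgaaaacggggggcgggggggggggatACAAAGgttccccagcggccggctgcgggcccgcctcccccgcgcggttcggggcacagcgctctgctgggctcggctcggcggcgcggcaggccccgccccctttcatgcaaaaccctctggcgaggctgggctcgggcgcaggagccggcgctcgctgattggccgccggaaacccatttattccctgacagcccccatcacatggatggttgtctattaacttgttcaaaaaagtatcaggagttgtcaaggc
Sox15 (chr11:69654787-69655086, forward strand): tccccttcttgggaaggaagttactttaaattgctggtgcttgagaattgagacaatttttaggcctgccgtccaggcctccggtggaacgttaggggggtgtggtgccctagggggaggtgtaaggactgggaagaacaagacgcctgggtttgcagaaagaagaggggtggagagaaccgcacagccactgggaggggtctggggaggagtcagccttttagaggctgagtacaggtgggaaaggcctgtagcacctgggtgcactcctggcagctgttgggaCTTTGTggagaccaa
Start sites differ between annotations, and in GENCODE Sox2, Sox11 and Sox15 begin at 34650405, 27342574 and 69655314, beyond the downstream ends of their windows. Sox1 begins in GENCODE at 12395295, near the upstream end of its window. Its octamer lies downstream of the start in both annotations. The GC content of the windows was 70.7% for Sox1, 76.7% for Sox12, 66.3% for Sox2 and 56% for Sox15, against a median of 52.7% for all promoters. A motif match is a string of letters only, and binding was not measured.

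Counts of calls in this and the following lists stand beside 67.7% of all genes tested, 34.0% higher and 33.7% lower. Of the 11 other SOX genes, 8 were tested, with 3 higher, 2 lower and 3 not passing the test, and a median log2 fold change of -0.12. Per kb, each was below the lowest member in both genotypes, and their sum was 2.35 ± 0.133 CPM per kb in WT and 2.84 ± 0.128 in Tnfaip2-/- EBs. Sox9, a SoxE gene of neural crest and glia, fell from 14, 14 and 11 counts to 2, 3 and 5 (log2 fold change -1.89, SE 0.445, adjusted p = 0.000244). Sox6, a SoxD gene like Sox13, had 20, 24 and 27 counts in WT and 13, 4 and 14 in Tnfaip2-/- EBs (-1.15, SE 0.312, adjusted p = 0.00121), while Sox13 rose. Sox7, a SoxF gene of endoderm and endothelium, rose from 33, 54 and 44 to 70, 75 and 54 counts (0.64, SE 0.174, adjusted p = 0.00126).

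The remaining calls among the other SOX genes were those of Sox17 and Sox8. Sox17, the endoderm SoxF gene, had 68, 62 and 44 counts in WT and 72, 70 and 89 in Tnfaip2-/- EBs (log2 fold change 0.45, adjusted p = 0.0116). It did not pass without WT replicate 3 (0.25, adjusted p = 0.18), without Tnfaip2-/- replicate 3 (0.32, adjusted p = 0.111) or with DESeq2 (adjusted p = 0.117). Sox8, a SoxE gene like Sox9, had 11, 5 and 13 counts in WT and 17, 10 and 23 in Tnfaip2-/- EBs, which overlap (0.82, adjusted p = 0.0363). It did not pass without WT replicate 2 (0.52, adjusted p = 0.218), without Tnfaip2-/- replicate 1 (0.81, adjusted p = 0.0693) or 3 (0.50, adjusted p = 0.282), with DESeq2 (adjusted p = 0.207) or without the filter (0.0601). Sox5 (-0.53, adjusted p = 0.168), Sox10 (0.30, adjusted p = 0.367) and Sox18 (-0.56, adjusted p = 0.158) did not pass, and Sox18 passed only when Tnfaip2-/- replicate 1 was left out (-1.11, adjusted p = 0.019). Sox30 had between 6 and 12 counts in each sample, Sox14 at most 1, and Sry 0 in all. At this depth 3 counts correspond to 0.126 to 0.138 CPM, and a count of 0 allows a level up to this value (counting error only).

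Partner factors of SOX proteins were mostly lower. Of 7 POU and PAX genes 5 were tested, with 0 higher and 5 lower (median log2 fold change -0.82). Pou5f1, the partner of SOX2 in pluripotent cells, had 17425, 16786 and 17869 counts in WT and 9563, 9282 and 9144 in Tnfaip2-/- EBs. It fell from 759.7 ± 9.63 to 419 ± 5.97 CPM (log2 fold change -0.86, SE 0.0237, adjusted p = 1.6e-32), opposite to Sox2. Pax6, a partner of SOX2 in the eye and a gene of the neural ectoderm, fell from 17.12 ± 0.536 to 9.71 ± 1.01 CPM (-0.82, adjusted p = 3.07e-13). Pou3f1, a POU factor of the epiblast and early neural cells, fell with a log2 fold change of -0.43 and Pou3f3 with -1.50. Pou2f1 (OCT1) overlapped between the genotypes (-0.12, adjusted p = 0.0117), and its call was lost without WT replicate 2 (adjusted p = 0.0541) or Tnfaip2-/- replicate 2 (0.0556), with DESeq2 (0.055) and with total counts only (-0.09, adjusted p = 0.0533). Pou3f2 had 10, 16 and 31 counts in WT and 2, 4 and 1 in Tnfaip2-/- EBs, and with Pou3f4 was below the filter.

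Known joint targets of OCT4 and SOX2 were split. Of 7 such genes 4 were higher and 3 lower (median log2 fold change 0.26). Fbxo15 rose from 58.75 ± 1.01 to 90.58 ± 1.08 CPM (0.62, adjusted p = 2.07e-20), Lefty1 had a log2 fold change of 0.50, Spp1 of 0.32 and Nanog of 0.26. Fgf4 fell from 105.4 ± 1.78 to 67.22 ± 1.07 CPM (-0.65, adjusted p = 1.02e-21) and Zscan10 from 143.5 ± 1.74 to 84.23 ± 2.36 CPM (-0.77, adjusted p = 1.16e-25). Utf1 overlapped between the genotypes (-0.06, adjusted p = 0.0465) and was not called without WT replicate 1 (adjusted p = 0.192), WT replicate 2 (0.108) or Tnfaip2-/- replicate 1 (-0.03, adjusted p = 0.316), while without WT replicate 3 it was -0.11. Nor was it called with DESeq2 (adjusted p = 0.0844), total counts only (-0.04, adjusted p = 0.256) or a minimum count of 50 (adjusted p = 0.0633).

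Genes of the neural plate and of neural progenitors, where SoxB1 factors act, were mostly lower. Of 16 genes 10 were tested, with 1 higher, 8 lower and 1 not passing (median log2 fold change -0.63). Zic1 had 111, 94 and 107 counts in WT and 2, 0 and 2 in Tnfaip2-/- EBs, and Fabp7, a gene of radial glia, had 30, 28 and 38 against 2, 1 and 4. Zic2 fell from 177.8 ± 1.63 to 91.9 ± 1.52 CPM (-0.95, adjusted p = 2.82e-30), and Cdh2, which encodes N-cadherin, from 47.31 ± 0.881 to 24 ± 0.62 CPM (-0.98, adjusted p = 6.46e-23). Hesx1, a homeobox gene of the anterior neural plate, was the exception and rose from 1.18 ± 0.264 to 7.42 ± 0.653 CPM (2.65, adjusted p = 2.03e-20). Otx2, an anterior homeobox gene that the epiblast also expresses, had 224.2 ± 2.25 CPM in WT and 222.9 ± 0.675 in Tnfaip2-/- EBs (-0.01, adjusted p = 0.786). Lhx2 overlapped between the genotypes (-0.44, adjusted p = 0.0304) and lost its call without WT replicate 2 (adjusted p = 0.0636) or 3 (0.061) and without Tnfaip2-/- replicate 1 (0.0909) or 3 (-0.28, adjusted p = 0.202) and with DESeq2 (adjusted p = 0.174), while without Tnfaip2-/- replicate 2 it was -0.68. Among the untested genes, Six3, Hes5, Rax and Neurog2 were below the filter, with at most 13 counts in any sample.

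Among 11 genes of neuron differentiation, where SoxC factors act, all were tested, with 2 higher and 9 lower (median log2 fold change -0.70). Stmn2, a regulator of microtubules in growing axons, fell from 153.1 ± 5.53 to 45.84 ± 2.32 CPM (-1.74, adjusted p = 6.69e-37). Dcx, a microtubule protein of migrating neurons, had 14, 21 and 19 counts in WT and 1, 0 and 0 in Tnfaip2-/- EBs. The neurofilament gene Nefm fell with a log2 fold change of -1.84 and Nefl with -0.79. Ina, a further neuronal intermediate filament gene, fell with -0.60. Tubb3, the neuronal tubulin gene often taken as a readout of SoxC activity, rose instead, from 67.13 ± 2.64 to 86.56 ± 1.96 CPM (0.37, adjusted p = 2.64e-12), as did Map2 (0.37, adjusted p = 0.000524). Tead2, a Hippo pathway factor rather than a neuronal protein and the most abundant gene of the list by CPM, fell from 237.2 ± 4.27 to 153.2 ± 1.88 CPM (-0.63, adjusted p = 8.55e-25).

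**Figure D5:**
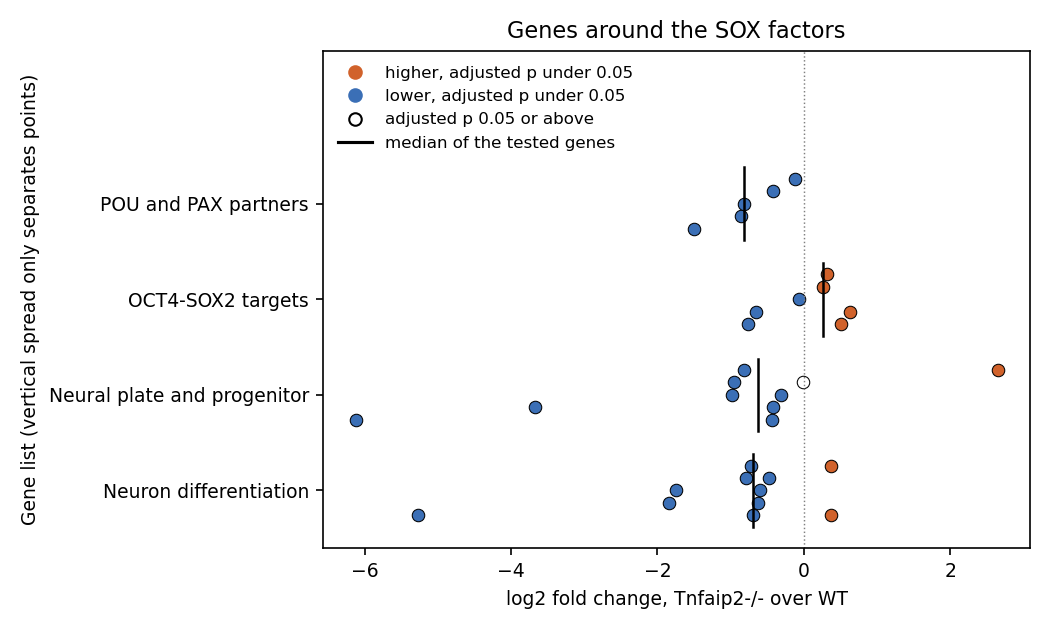
Log2 fold change (Tnfaip2-/- over WT) of each tested gene in 4 lists, with orange for higher, blue for lower and white for an adjusted p of 0.05 or above, and the median as a line. Medians lie at -0.82 for POU and PAX partners, 0.26 for OCT4-SOX2 targets, -0.63 for neural plate genes and -0.70 for neuron genes; points below -3 are genes with 0 to 4 counts in each Tnfaip2-/- sample, whose fitted values are imprecise.

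Markers of other cell types moved with the members as well, and their part in the SOX values was not tested. ESC markers were 2 higher (Zfp42 and Nanog) and 4 lower of 6 (median log2 fold change -0.32), with Dppa5a the most abundant. Zfp42 changed most, from 229 ± 8.94 CPM in WT to 427.9 ± 1.57 in Tnfaip2-/- EBs (0.90, adjusted p = 1.92e-31). Dppa5a fell from 973.2 ± 34.8 to 602 ± 15.9 CPM (-0.69, adjusted p = 8.28e-28). The summed level of the 6 ESC markers was 2880, 2830 and 2930 CPM in WT and 2330, 2310 and 2280 in Tnfaip2-/- EBs. Mesoderm markers were 0 higher and 5 lower of 5 tested (of 6), and summed to 74.2, 72.3 and 73.2 CPM in WT and 20.8, 18.3 and 22 in Tnfaip2-/- EBs. Their median log2 fold change was -3.74, or -3.00 with genes of at most 3 counts in every sample of a genotype set to 3 counts. T, the defining gene of the primitive streak, went from 774, 732 and 866 counts to 5, 3 and 1, and Msgn1 was at 0 in all Tnfaip2-/- EBs. By CPM, T was highest of this list in WT and Eomes in Tnfaip2-/- EBs. The call of Tbx6 (-0.51, adjusted p = 0.0368) was lost without any of WT replicates 1 and 3 and Tnfaip2-/- replicates 1 and 2 (adjusted p 0.194, 0.107, 0.0874 and 0.106) and with DESeq2 (0.198).

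Endoderm markers were 1 higher (Sox17), 3 lower and 2 not passing of 6 (median log2 fold change -0.07). They summed to 81.9, 82.8 and 76.7 CPM in WT and 73.4, 73.7 and 74.1 in Tnfaip2-/- EBs, mostly from Cubn. The call of Cubn (-0.09, adjusted p = 0.0458) was lost without WT replicate 1 (adjusted p = 0.0941) or 2 (0.125) and without Tnfaip2-/- replicate 2 (0.12) or 3 (0.0939). It was also lost with DESeq2 (adjusted p = 0.137), total counts only (-0.07, adjusted p = 0.17) and a minimum count of 50 (adjusted p = 0.0521). Trophoblast markers were 3 higher and 1 lower of 4 tested (of 6; median 1.65), and summed to 26.7, 24.3 and 25.5 CPM in WT and 179, 175 and 178 in Tnfaip2-/- EBs. Nearly all of this was Tfap2c, which primordial germ cells and naive ESCs also express, with 21.67 ± 1.07 CPM in WT and 171.1 ± 1.65 in Tnfaip2-/- EBs. Ascl2 rose from 1.65 ± 0.126 to 4.82 ± 0.299 CPM (1.55, adjusted p = 9.45e-13) and Hand1 from 0.36 ± 0.0163 to 1.24 ± 0.485 CPM (1.75, adjusted p = 4.42e-06). Cdx2, the 1 gene of this list called lower, had 42, 37 and 28 counts in WT and 1, 2 and 0 in Tnfaip2-/- EBs. Elf5 had at most 3 counts in any sample. Fibroblast markers were 0 higher and 2 lower of 3 tested (of 6; median -1.50) and near 0. They summed to 3.79, 4.87 and 4.3 CPM in WT and 1.54, 2.24 and 2.39 in Tnfaip2-/- EBs. By CPM, without division by length, Col1a2 was highest in WT and Col1a1 in Tnfaip2-/- EBs. Postn and Lum were at 0 in all Tnfaip2-/- EBs.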

How the data were processed

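RNA from 6 EB samples was sequenced as 51-base single-end reads (TruSeq RNA v2). According to the study's methods and the submitters' processing notes, the authors mapped the reads to GRCm38 with TopHat2 (2.1.0), counted uniquely mapped reads per gene of Ensembl release 90 with featureCounts (1.5.0) and deposited these counts without normalization. The strand setting and the treatment of reads that overlap several genes are not given in the sources used here. Symbols, positions and exon lengths came from GENCODE M21, which matched 52403 of 52636 gene IDs. The genotypes were compared with edgeR (4.0.16, R 4.3.3): TMM scaling, the expression filter at its defaults (minimum count 10, minimum total 15; 17849 genes kept), the quasi-likelihood test with robust dispersion and Benjamini-Hochberg adjustment over all genes tested, with a threshold of 0.05. Standard errors were derived from the test statistic. The procedure was also run on simulated data, and the outcome is not reported here. CPM are counts per 1000000 after TMM scaling (factors 0.987 to 1.012). Log2 ratios of paralogue counts were compared with an exact two-sided permutation test over samples. Named genes were all members, the genes of the stated lists, genes whose exons or span overlap a member, and, for the 3 members with the largest absolute log2 fold change, the 3 genes (mean CPM at least 1) at the smallest Euclidean distance in centred log2 CPM (prior count 2). The members and lists were chosen with earlier results of these data known, and lists share some genes (Pax6, Pou5f1, Nanog and Sox17). Some untested genes of the neural plate list are not reported here. The study describes its 3 samples per genotype as biological replicates, each genotype is 1 cell line, and p-values measure the spread between these samples. Within a genotype, pairs of samples differed by more than sampling noise (chi-square per gene 1.37 to 2.00). Alternatives were DESeq2 (1.42.0), other scaling, other filters (none, or a minimum count of 50), the legacy form of the quasi-likelihood fit, the replicate number as a block, a test against a fold change of 1.5, and leaving out each sample.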

Additional observations from a re-analysis of the deposited data

How the results depend on the processing

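Over 14 alternatives, the log2 fold changes of the 9 members kept their direction in 126 of 126 values and their side of the threshold in 123. The 3 exceptions were Sox2, Sox12 and Sox13 under the test against a fold change of 1.5, by whose construction small changes do not pass. With this test 2798 genes passed in place of 12084, and 2 members were called higher in place of 4 and 4 lower in place of 5. The fold changes of the members ranged from 2.67 to 2.85 on the log2 scale for Sox15, from -1.66 to -1.59 for Sox1 and from 0.20 to 0.26 for Sox2. DESeq2 called 10261 genes, and leaving out a sample gave 11537 to 11744 genes. Of 835 values of the list genes, 763 kept direction and call, 66 lost the call (29 of them under the test against a fold change of 1.5), 1 gained it and 5 changed sign, none of them called: Otx2 (0.0193 with total counts only), Gata4 (-0.1062 to 0.0245 when a sample was left out) and Col1a1 (-0.1857 to 0.1579). The 3 other SOX genes called higher became 1 with DESeq2 or without Tnfaip2-/- replicate 3 and 0 under the test against a fold change of 1.5. The 2 called lower, Sox6 and Sox9, were removed by the filter at a minimum count of 50 and so were not tested there. Of these 2, 1 was still called under the test against a fold change of 1.5. Under the same test, OCT4-SOX2 targets went from 4 to 0 higher and from 3 to 1 lower. Neuron genes went from 2 to 0 higher and from 9 to 3 lower. Neural plate genes went from 8 to 5 lower, with 1 higher in both, and POU and PAX partners from 5 to 3 lower. The replicate number was also fitted as a block, which gave 11841 genes, 4 members higher and 5 lower; with the block Utf1 (adjusted p = 0.0894) and Cubn (0.0672) were not called. Same-numbered samples did not deviate together (correlations across genes -0.0584, -0.0513 and -0.0631, against 0.0209 to 0.0381 for different numbers). Deviations from a mean of 3 samples depend on each other, so these correlations cannot exclude that same-numbered samples were handled together. The difference in the log2 ratio of Sox1 to Sox3 (-0.02) ranged from -0.11 to 0.11 when a sample was left out and was positive, at 0.1127, only without Tnfaip2-/- replicate 2; the cause was not tested. No alternative moved the median of all genes by more than 0.03.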
